A study of Saccharomyces cerevisiae with 11 samples.

Results

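RNA levels were compared between R11, a yeast strain whose H2A carries an arginine inserted at position 11 of the N-terminal domain (NTD), and WT, which carries unchanged H2A. The arrays were chosen by the titles of the samples, which gave 2 arrays of R11 and 3 of WT out of 11 in the series. Both strains are Saccharomyces cerevisiae of mating type a with the alleles hta1-1, hta2-1, ura3-52 and his3, which the study describes as a deletion of both chromosomal H2A genes, and both live on a centromeric plasmid that carries HIS3 and a single HTA1 gene. Each mutant is 1 strain, so a change elsewhere in its genome cannot be told apart from the change in H2A. Starter cultures in YPD were diluted to an optical density (OD600) of 0.2 and harvested in log phase at 0.8, without treatment. The other strains used here are K11, with a lysine inserted at the same place, ΔS15, which lacks serine 15, and R11ΔS15, which has the arginine and lacks the serine, with 2 arrays each. The labels of R11ΔS15 disagree on the inserted residue: the genotype field says lysine and the title says arginine, and the title was followed. The comparison asks which transcripts, if any, differ when H2A carries the inserted arginine.

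H2A is one of the 4 core histones around which DNA is wound in the nucleosome. Its N-terminal tail leaves the particle next to the DNA, and basic residues in it can contact the DNA backbone. Arginine and lysine both carry a positive charge and differ in the shape and hydrogen bonding of the side chain. Budding yeast normally makes H2A from a pair of genes, HTA1 and HTA2, each next to a gene for H2B and transcribed mostly in S phase.

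The inserted codon is seen in the forward mutagenesis primers of the R11 and K11 plasmids, which are shown because they are the only designed difference between these strains. Both primers have 43 bases, written 5′ to 3′, the inserted codon in capitals stands at bases 21 to 23, and the primers differ at 1 base.
R11_f: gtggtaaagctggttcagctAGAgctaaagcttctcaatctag
K11_f: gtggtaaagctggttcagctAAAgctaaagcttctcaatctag
The codon AGA encodes arginine and AAA encodes lysine. No probe set reports on this codon, so the arrays hold no check of the insertion itself.

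The arrays hold 1 signal per probe set on a linear scale (MAS5 signal), and log2 of the signal was compared. The trimmed mean signal of all 11 arrays was between 500.2 and 500.3, so the deposited signals had been scaled to a like mean. They do not show how bright the arrays were before scaling. On each array 5456 to 5466 of 5498 probe sets of S. cerevisiae lay above the background. Of the genes on the array, 5415 were tested. A pair of features of the arrays touches the comparison. The mean log2 signal of 18 spike-in probe sets was 8.51 to 8.78 on WT replicates 1 and 2, R11 and K11, and 8.35 to 8.45 on WT replicate 3 and the strains without serine 15, a split that the labels do not give. The ratio of 3′ to 5′ probe sets of ACT1 was 1.30 and 1.35 in R11, 1.26 in WT replicates 1 and 2, and 1.11 in WT replicate 3. The same ratio of TDH1 did not set WT replicate 3 apart from R11, at 1.49, 1.73 and 1.42 in WT and 1.43 and 1.60 in R11. For some of the values that moved without WT replicate 3, the value without that array is given as well. The labels do not say whether the replicates came from separate cultures, so the errors measure the spread between arrays, which may be technical.

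The H2A transcript did not differ beyond the spread between arrays. HTA1, which supplies H2A from the plasmid, had signals of 7643, 7549 and 7053 on the WT arrays and 7562 and 7046 on the R11 arrays. The groups overlapped, and the log2 difference was -0.02 with a 95% confidence interval of -0.18 to 0.13, which lies within 1.5-fold of no change. HTA2, the other H2A gene, was read by a probe set shared with a related sequence at 6094 ± 345 (SD, n = 3) in WT and 5953 ± 495 (SD, n = 2) in R11, and by an unshared one at 332 ± 43.7 and 339 ± 103. The unshared probe set lay above the background signal of 5.09 in both strains. Nearly all yeast probe sets did so, 5456 to 5466 of 5498 per array. Whether this signal came from HTA2 itself, which is described as deleted, or from a related sequence was not tested. The H2B gene HTB1 had 6565 ± 598 in WT and 6591 ± 351 in R11 (log2 difference 0.01), and HTB2 had 2749 ± 69.0 and 2695 ± 259 (-0.03).

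The genes of histones H3 and H4 differed as little. HHT1, an H3 gene, had signals of 4108, 3241 and 3562 in WT and 4436 and 3276 in R11, where replicate 1 was the higher array in both strains. HHT2, the other H3 gene, had 2969, 3141 and 2642 in WT and 2891 and 2464 in R11, a log2 difference of -0.12 (95% interval -0.49 to 0.24). The 2 K11 arrays lay above both strains for HHT2, at 3405 and 3327, and the log2 difference of R11 and K11 was -0.33 (95% interval -0.74 to 0.07). HHF1, which encodes H4, was -0.05 apart on a shared probe set. HTZ1, the gene of the variant H2A.Z, had a log2 difference of 0.08, CSE4, the centromeric H3, 0.05, and HHO1, the linker histone, 0.04. None of the 7 core or 3 variant and linker histone genes passed the test, and the R11 and WT arrays overlapped for every one of them. This is not particular to histones, since 0% of all genes passed and only 8.33% had no overlap. The plot of the histone genes shows each array.

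**Figure D1:**
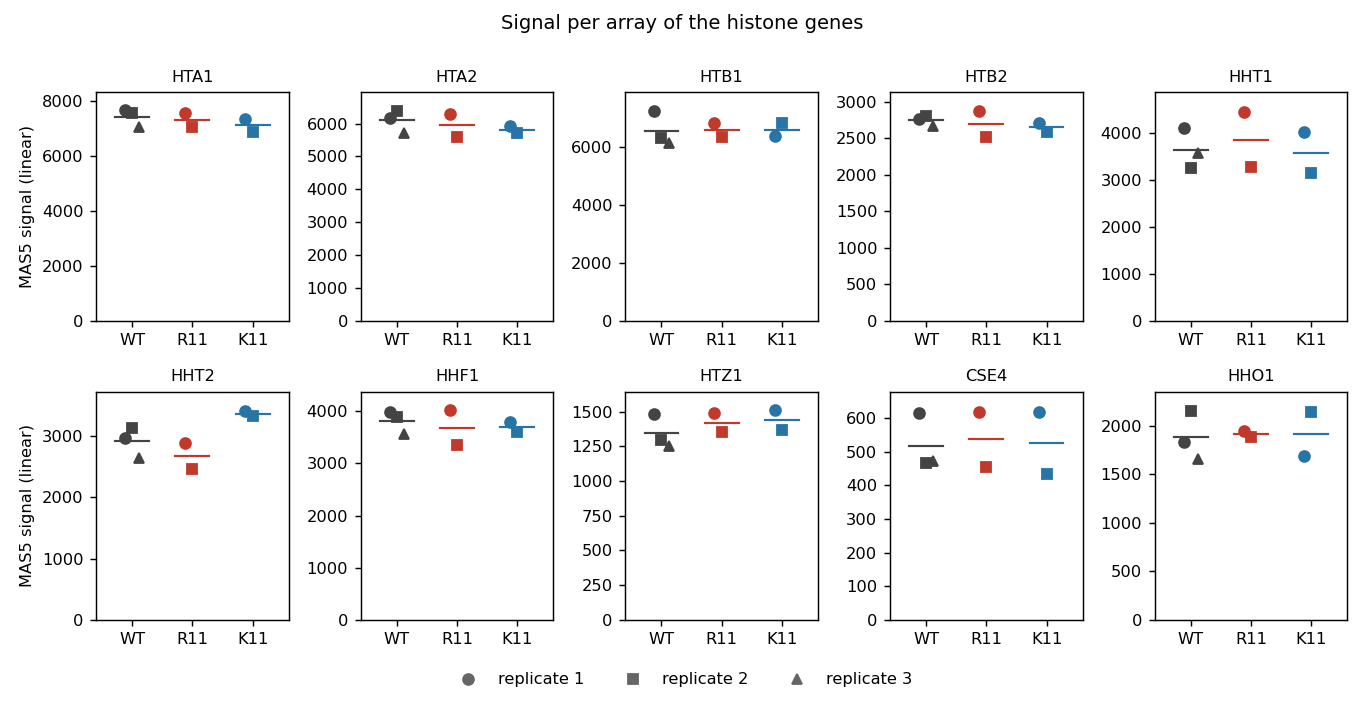
MAS5 signal (linear scale from 0) of 10 histone genes on each array of WT, R11 and K11, with the replicate number as the symbol and the group mean as a line. For every gene the R11 arrays overlap the range of the WT arrays; HTA1 lies between 7046 and 7643 on all 5 of them.

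Mating type genes were read as a check of the strain list. Most MATa-specific genes were bright, as for the α-factor receptor gene STE2 with 4312, 4183 and 4375 in WT and 4543 and 4606 in R11. ASG7 was the dimmest of those named, with 163, 114 and 173 in WT and 123 and 159 in R11. The a-factor precursor genes MFA1 and MFA2 had 1510 ± 147 and 4761 ± 533 in WT and 1750 ± 140 and 5308 ± 395 in R11. Of the MATα-specific genes none was at 0. The α-factor genes MF(ALPHA)1 and MF(ALPHA)2 were dim, at 58.9 and 91.4 in WT and 56.7 and 112 in R11, and the a-factor receptor gene STE3 had 190 ± 19.1 and 162 ± 22.0, while SAG1 and AFB1, well above the background, had 685 and 860 in WT and 735 and 809 in R11. Among the 7 MATa-specific genes 6 had a higher mean in R11 (43.5% of all genes did), and for 3 of them the R11 arrays lay above all WT arrays, against 3.62% of all genes. Their median log2 difference was 0.09, with 0.06 within replicate number 1 and 0.30 within number 2, and none passed the test.

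Across the genome no gene passed the test. Of 5415 genes, 0 (0%) had an adjusted p under 0.05 in limma with Benjamini-Hochberg adjustment, the smallest adjusted p was 0.9999, and 19 (0.351%) had an unadjusted p under 0.05. With 2 arrays against 3, an exact permutation test of 1 gene cannot go below 0.2 (two-sided). The median absolute log2 difference was 0.07, and the middle 90% of genes lay between -0.25 and 0.15. The 95% confidence interval lay within 2-fold of no change for 5228 genes (96.5%) and within 1.5-fold for 4212 genes (77.8%). For the other genes a difference of that size in R11 was not detectable, or not excluded, with these arrays. The intervals are per gene, without adjustment for the number of genes. Of the 187 genes whose interval reached past 2-fold, 116 had a mean signal under 50. This fit had no term for the replicate number, so the spread between numbers stayed in its errors. Its 0.351% lies far below the share of 0.05 that genes without any difference would give. The lack of calls is thus weak evidence of no change, and the intervals given per gene come from this fit. With the replicate number as a block and only WT, R11 and K11, 0 genes passed limma. The median standard error was 0.068 with that block and 0.157 in the main fit. In that fit 440 (8.13%) had an unadjusted p under 0.05, and the interval lay within 1.5-fold for 5120 genes.

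Genes that differed by the size of their means were few and mostly dim. A difference of 2-fold or more was found for 5 genes (0.0923%) and of 1.5-fold or more for 29 (0.536%), of which 25 (0.462%) were lower in R11 and 4 (0.0739%) higher. Only 7 of the 29 had a mean signal of at least 50, as 5191 of the tested genes did. These counts depended on single arrays: the 2-fold and 1.5-fold genes numbered 12 and 86 without WT replicate 1, 9 and 57 without WT replicate 2, 11 and 90 without R11 replicate 1, and 13 and 74 without R11 replicate 2. The share of higher genes among those at 1.5-fold was 13.8%, but 42.1% (8 of 19) after quantile normalization. The 5 genes at 2-fold were dim, 4 of them at or near the background signal of 5.09 on some arrays. BSC1, a gene of unknown role, had 27.2, 19.1 and 67.5 in WT and 22.3 and 10.8 in R11. YJR154W had 8.26, 6.01 and 22.7 in WT and 0.180 and 8.40 in R11. PTH1, a peptidyl-tRNA hydrolase gene, had 0.949, 12.4 and 20.1 against 2.10 and 1.75, and YML100W-A had 9.13, 4.62 and 5.66 against 9.49 and 0.562. YOR316C-A was the only one of the 5 with a higher mean in R11, at 3.92 and 10.1 against 0.302, 5.74 and 13.7. In each of these 5 genes the arrays of the strains overlapped. Without WT replicate 3 the log2 difference went from -1.08 to -0.56 for BSC1 and from -3.08 to -2.52 for YJR154W. It went from -1.69 to -0.84 for PTH1, from -1.42 to -1.49 for YML100W-A and from 1.13 to 2.26 for YOR316C-A.

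The R11 arrays followed the WT array of the same replicate number. Over the 5191 genes with a mean signal of at least 50, the SD of the log2 difference was 0.125 between R11 replicate 1 and WT replicate 1 and 0.157 between R11 replicate 2 and WT replicate 2. Between arrays of other numbers it was 0.270 to 0.319, and it was 0.284 between WT replicates 1 and 2 and 0.268 between R11 replicates 1 and 2. Arrays of different strains and the same number were thus closer to each other than arrays of the same strain. When the log2 signals of these 4 arrays were split into effects, the effect of the replicate number reached 1.5-fold for 142 genes, that of the strain for 6 genes and that of their interaction for 2. HSP30, a membrane protein gene induced by heat shock, had 3216 and 3280 on replicate 1 of WT and R11 and 545 and 666 on replicate 2, with 836 on WT replicate 3. Its log2 difference was 0.38 between the means and 0.03 and 0.29 within the numbers.

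**Figure D2:**
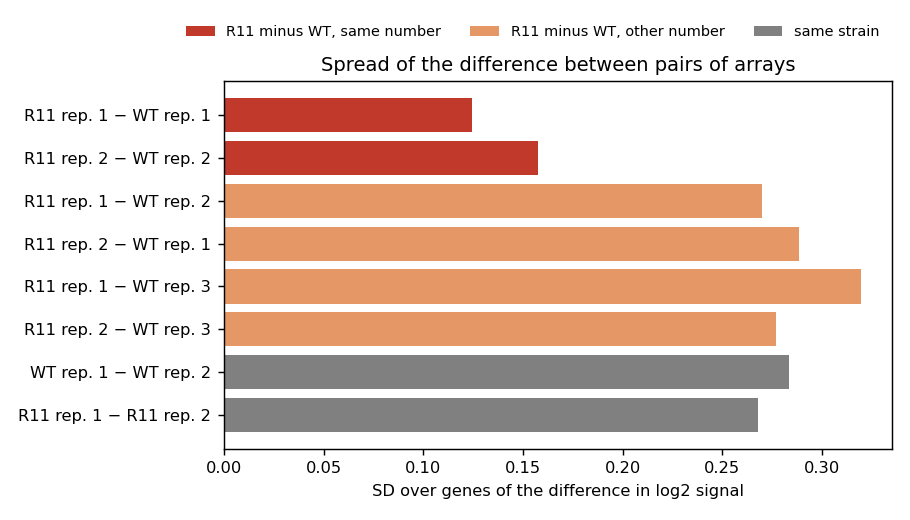
Standard deviation over 5191 genes of the difference in log2 signal for 8 pairs of arrays, coloured by whether the pair joins R11 and WT of the same replicate number, R11 and WT of different numbers, or 2 arrays of 1 strain. The shortest bars are the same-number pairs, at 0.125 and 0.157, and the other bars lie between 0.268 and 0.319.

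The 2 differences within replicate numbers share no array, so genes chosen in one can be read in the other. Across the 5191 genes they had a Pearson correlation of 0.11 and a Spearman correlation of 0.11, and 55.2% of genes had the same sign in both. Genes are not independent replicates, and the 2 differences share the strains, so the correlation is a description. At 1.5-fold, replicate number 1 gave 5 higher genes, of which 3 were higher (53.4% of all genes were) and 0 were 1.5-fold higher within number 2. It gave 5 lower genes, of which 4 were lower (46.6% of all genes were) and 2 were 1.5-fold lower within number 2. Replicate number 2 gave 12 higher genes, of which 6 were higher within number 1 (50.8% of all genes were), and 13 lower genes, of which 10 were lower (49.2% of all genes were). IRC18 and YAR009C were the 2 of these 5191 genes that were 1.5-fold apart in the same direction in both. At 1.25-fold, 4 of the 5191 were higher in both numbers, 12 were lower in both and 10 went opposite ways. Over all 5415 tested genes, dim ones included, 7 were 1.5-fold apart in the same direction in both, 4 of them higher in R11.

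**Figure D3:**
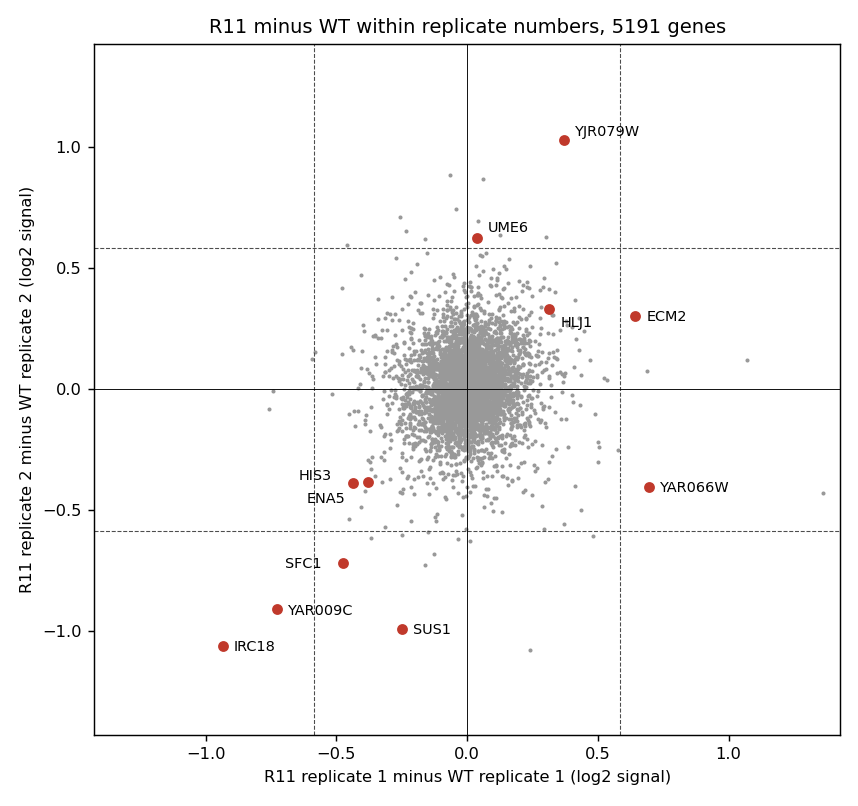
Log2 difference of R11 and WT within replicate number 1 (x axis) and within replicate number 2 (y axis) for 5191 genes, with named genes in red and dashed lines at 1.5-fold. Most genes form a round cloud about 0; IRC18 (-0.94 and -1.06) and YAR009C (-0.73 and -0.91) lie past both lines in the lower left corner.

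Among genes with lower signal in R11 within both numbers, IRC18 differed most. IRC18, named for the raised level of recombination centres in its deletion mutant, had signals of 136, 137 and 105 in WT and 71.0 and 65.8 in R11. Both R11 arrays lay below all WT arrays, which held for 4.71% of all genes, and the log2 difference was -0.87 (95% interval -1.54 to -0.21). The K11 arrays were low as well, at 78.2 and 50.5, and the log2 difference of R11 and K11 was 0.12 (95% interval -0.61 to 0.85). In the background without serine 15 the pair went opposite ways, from 77.2 and 95.3 in ΔS15 to 119 and 56.2 in R11ΔS15.

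YAR009C, a gene of a Ty1 retrotransposon on chromosome I, had 171, 183 and 174 in WT and 103 and 97.5 in R11, so that the spread within each strain was small beside the difference between them. The log2 difference was -0.81 (95% interval -1.30 to -0.32). K11 had 161 and 159, close to WT, and R11 lay below K11 by a log2 difference of -0.67 (95% interval -1.21 to -0.13, adjusted p = 0.99999 in limma). YDR261C-D, another Ty gene, had 140, 154 and 222 in WT, 109 and 101 in R11 and 224 and 170 in K11, a log2 difference from WT of -0.69, or -0.49 without WT replicate 3. Both probe sets are shared between near-identical copies, so the signal cannot be assigned to 1 element. The 13 Ty genes tested were a list drawn up after these 2 values were seen. Of them, 8 were lower and 5 higher, beside 56.5% and 43.5% of all genes. Their median log2 difference of -0.16 on means became -0.07 without WT replicate 3. YAR010C, a bright Ty gene with a shared probe set, had 6413, 4869 and 4590 in WT and 5726 and 4982 in R11, and YDR316W-B had 8586, 8261 and 6693 against 8362 and 8122, and for both the arrays overlapped.

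HIS3, the histidine synthesis gene that marks the H2A plasmid, was lower in R11 by much the same amount within both numbers. Its signals were 10390, 9621 and 9443 in WT and 7675 and 7350.5 in R11, and both R11 arrays lay below all WT arrays. The means were 9818 ± 503 (SD, n = 3) and 7513 ± 229 (SD, n = 2), a log2 difference of -0.39 (95% interval -0.64 to -0.14, adjusted p = 0.9999 in limma), with -0.44 within number 1 and -0.39 within number 2. K11 lay between them, at 8315 and 9297. HTA1, on the same plasmid, did not share the difference, with a log2 difference of -0.02. In the strains without serine 15, HIS3 read 7386 and 9339 in ΔS15 against 8776 and 6853 in R11ΔS15, so these strains overlapped. URA3, whose chromosomal copy carries the ura3-52 allele in both strains, had 118 ± 6.29 and 116 ± 9.80.

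ENA5, a gene of the tandem family of sodium pump ATPases, gave different values on its probe sets. Its shared probe set had 1829, 2332 and 2047 in WT and 1407 and 1791 in R11, with log2 differences of -0.38 within both numbers, and K11 had 1355.5 and 1834. The unshared probe set of the gene had 201 ± 13.7 in WT and 203 ± 41.5 in R11 (log2 difference 0.00), so the difference cannot be credited to ENA5. The other genes that the selection rule named for lower signal within both numbers were dimmer. SFC1, the mitochondrial succinate-fumarate carrier, had log2 differences of -0.48 and -0.72 within the numbers, YFL012W -0.45 and -0.54, HBT1, a protein of the mating projection, -0.41 and -0.49, and CRC1, the mitochondrial carnitine carrier, -0.39 and -0.42. The arrays of R11 and WT overlapped for SFC1 and HBT1 and lay apart for YFL012W and CRC1. On means SFC1 was at -0.38 and HBT1 at -0.34, or -0.14 and -0.15 without WT replicate 2. CRC1 was 75.3 and 77.4 in K11, against 69.6 and 81.0 in R11 and 90.6 to 108 in WT, so both insertions lay below WT.

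Higher signal in R11 within both numbers was smaller in size. HLJ1, a co-chaperone of Hsp70 in the membrane of the endoplasmic reticulum, had 562, 540.5 and 614 in WT and 698 and 680.0 in R11. Both R11 arrays lay above all WT arrays, with log2 differences of 0.31 and 0.33 within the numbers and 0.27 on means (95% interval 0.02 to 0.52, adjusted p = 0.9999 in limma). K11 had 556 and 567, within the WT range, and R11 lay above K11 by 0.30 (95% interval 0.02 to 0.57). ΔS15 and R11ΔS15 both lay between 546 and 576, a log2 difference of 0.00, and the difference of the arginine's effect with and without serine 15 was 0.27 without passing the test. NIT1, a nitrilase gene, had 307, 331 and 367 in WT and 388 and 438 in R11, but its 2 K11 arrays had 387 and 287, so that their spread covered the difference.

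The other genes that the selection rule named in this direction were ART10, an arrestin-related gene, HSP78, the mitochondrial disaggregase, PNS1, YJR115W, SIA1 and YJR079W. The smaller of the 2 within-number differences of each gene was 0.31 to 0.37, and the larger was 0.32, for YJR115W, to 1.03, for YJR079W. For ART10, HSP78, SIA1 and YJR079W the value depended on WT replicate 3. ART10 had 128 and 136 on WT replicates 1 and 2, 170 and 176 in R11 and 247 on WT replicate 3, so that its log2 difference was 0.39 without that array and 0.09 with it. HSP78 had 152, 192 and 274 in WT and 192 and 275 in R11, with 0.43 without WT replicate 3 and 0.20 with it. SIA1 had 228, 230.3 and 302 in WT and 285 on both R11 arrays, with 0.32 and 0.18, and YJR079W had 44.1, 34.1 and 79.0 in WT and 57.0 and 69.6 in R11, with 0.70 and 0.36. Among genes whose arrays did not overlap, OCA6, named for oxidant-induced cell cycle arrest, had 688, 579 and 616 in WT and 837 and 732 in R11, and 632 and 612 in K11. UME6, the DNA-binding repressor of early meiotic genes, had 693, 569 and 626 in WT and 712 and 878 in R11, and the log2 difference was 0.04 within number 1 and 0.63 within number 2. SUS1, a subunit of the SAGA and TREX-2 complexes, was of the same kind in the other direction, with 255, 231 and 254 in WT and 215 and 116 in R11. R11 replicate 2 thus set both differences: without it they were 0.18 for UME6 and -0.20 for SUS1. In all, 451 genes (8.33%) had no overlap between the R11 and WT arrays, 196 (3.62%) with R11 higher and 255 (4.71%) with R11 lower, and 65 (1.2%) of these also differed by 1.25-fold.

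**Figure D4:**
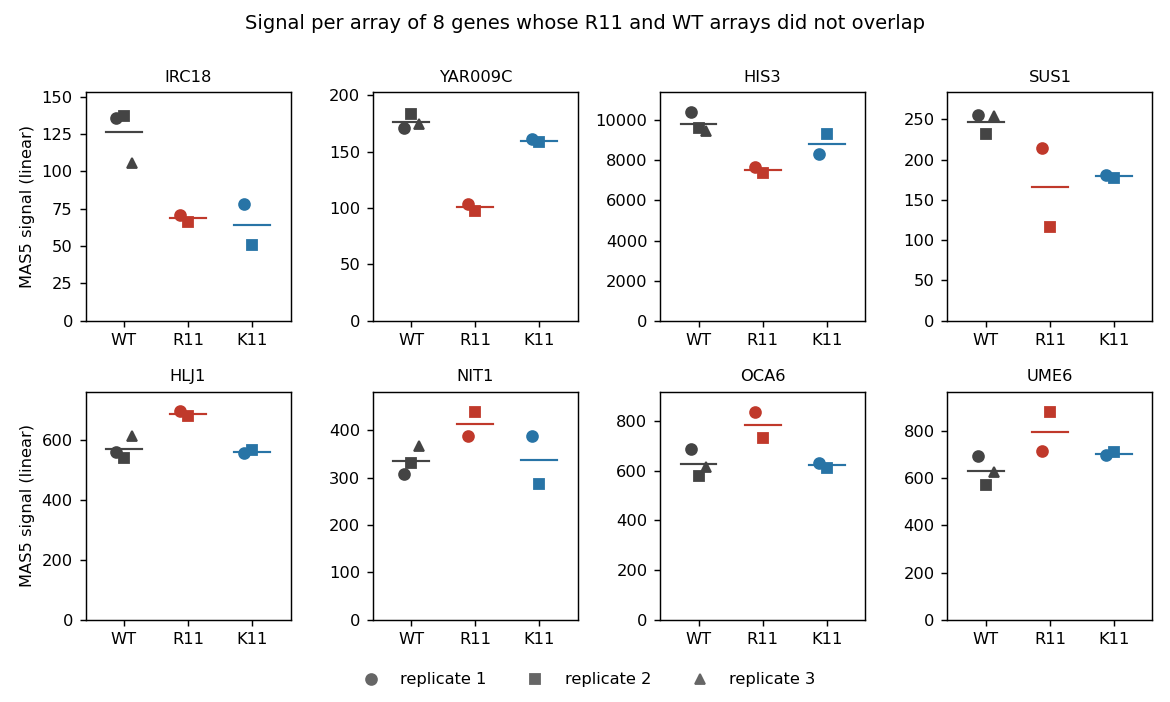
MAS5 signal (linear scale from 0) of 8 genes on each array of WT, R11 and K11, with the replicate number as the symbol and the group mean as a line. IRC18, YAR009C, HIS3 and SUS1 have both R11 arrays below the WT arrays, and HLJ1, NIT1, OCA6 and UME6 have both above; K11 is low with R11 for IRC18 and near WT for YAR009C and HLJ1.

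Genes of chromatin and of the nucleus were examined next, as the processes closest to the altered histone. Of 74 histone modifying enzymes, 38 had a higher and 36 a lower mean in R11. Of all genes, 43.5% were higher and 56.5% lower. The median log2 difference of the list was 0.01, with UME6 highest and SUS1 lowest. For 13 of the 74 (17.6%) the arrays did not overlap, 7 higher and 6 lower. Over all genes it was 8.33%, with 3.62% higher and 4.71% lower. Of 54 genes of chromatin remodeling complexes, 26 were higher and 28 lower with a median of 0.00. RVB1, an ATPase of the INO80 and SWR1 complexes, had 2101, 2058 and 1935 in WT and 2361 and 2303 in R11 and differed by 0.17 and 0.16 within the numbers, whereas HTL1, a small RSC subunit with signals of 15.1 to 36.8, was lowest on the list. Of 22 histone gene regulators and histone chaperones, 11 were higher and 11 lower. Their ends were SPT21, an activator of histone genes, at -0.16 and CAC2, a subunit of the CAF-1 chaperone, at 0.13. Without WT replicate 3, SPT21 was at -0.05 and CAC2 at 0.08. For no gene of that list did the arrays of R11 and WT lie apart.

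Condensin and topoisomerase genes, which act in chromosome compaction, had a median of -0.05, but 0.06 without WT replicate 3. Of the 9 genes, 7 were lower, beside 56.5% of all genes. BRN1, a condensin subunit, was lowest at -0.28 (-0.13 without WT replicate 3) with signals of 33.7 to 52.4, and SMC2, the condensin ATPase, highest at 0.07. For 11 cohesin genes the median was -0.03. Of 24 silencing and telomere binding genes, 17 were lower, beside 56.5% of all genes. The median of the list was -0.06, or -0.02 without WT replicate 3. EST1, a telomerase subunit, had 132, 212 and 210 in WT and 114 and 146 in R11, and the strains overlapped. The 297 genes within 30 kb of a chromosome end had a median of -0.06, which was 0.00 without WT replicate 3. The 52 nuclear pore and transport genes had a median of 0.01, from -0.22 for NUP170 to 0.11 for MTR2 (-0.05 and 0.03 without WT replicate 3), and NUP49, the pore protein tagged in the study, had 1380, 1572 and 1508 in WT and 1393 and 1671 in R11. The 28 genes of nuclear membrane growth and phospholipid synthesis had a median of -0.01, or 0.02 without WT replicate 3.

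No gene list lay far from the median of all genes. Of 39 gene lists, 1 had a median over 0.1 in size, the PAU and COS families of the chromosome ends at -0.10, and the others lay between -0.08 and 0.09, beside -0.02 for all genes. Without WT replicate 3 the PAU and COS families were at -0.06, and the 1 list over 0.1 was that of the MATa-specific genes at 0.11. Of the 128 cytosolic ribosomal protein genes 84 were higher on means, beside 43.5% of all genes, with a median of 0.03. Within the numbers, however, the medians were -0.01 and -0.04. There 57 (44.5%) were lower in both numbers and 20 (15.6%) higher in both, beside 25.4% and 29.6% of all genes. RPP1A, a protein of the ribosomal stalk, was highest on that list, with 6298, 5748 and 6626 in WT, 6850.4 and 7556 in R11 and 6006 and 5343 in K11, and its log2 difference from K11 was 0.34 (95% interval 0.13 to 0.56, adjusted p = 0.99999 in limma). The 31 RNA polymerase subunits likewise went from 0.04 on means to -0.04 and -0.06 within the numbers. RPO21, the largest subunit of RNA polymerase II, had 3296, 2435 and 1555 in WT and 3335 and 2683 in R11, so that WT replicate 3 alone was low. In all, 15 of the 39 lists had a median of the other sign without WT replicate 3, and 26 had medians of 1 sign within both numbers.

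Stress and growth genes lay near the median of all genes as well. Of 64 general stress response genes, 38 were lower and 26 higher, beside 56.5% and 43.5% of all genes. The median of the list was -0.03 on means and 0.02 and 0.03 within the numbers. SIP18, a protein of desiccation stress, had 88.3, 90.4 and 99.9 in WT and 74.6 and 67.9 in R11. The 25 heat shock chaperones had a median of -0.02, the 27 sulfate assimilation and methionine genes -0.07, which was -0.01 without WT replicate 3, and the 30 iron regulon genes -0.03 on means, -0.02 within number 1 and 0.18 within number 2. FRE1, a ferric reductase gene, had the highest log2 difference on the iron list, with a signal of 1696 on R11 replicate 2 against 1258 on WT replicate 2, and 1078 against 1014 on replicate 1. WT replicate 3 was high for the iron list too, and without it the median was 0.096. Large subunit assembly factors of the ribosome had medians of 0.00 and -0.09 within the numbers, and SSF2, one of them, had 354, 430 and 504 in WT, 325 and 268 in R11 and 366 and 280 in K11. Among the 22 hexose transporters and glucose sensors 16 were lower, beside 56.5% of all genes. The list had a median of -0.08, and HXT15 and HXT10 at its ends had signals of 4.71 to 33.0. Cyclins and cell cycle regulators had a median of -0.06 and DNA replication genes -0.04 (-0.03 and -0.01 without WT replicate 3), with WHI5, the repressor of cell cycle start, at signals of 11.0 to 50.3. None of the members of the 39 lists passed the test.

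**Figure D5:**
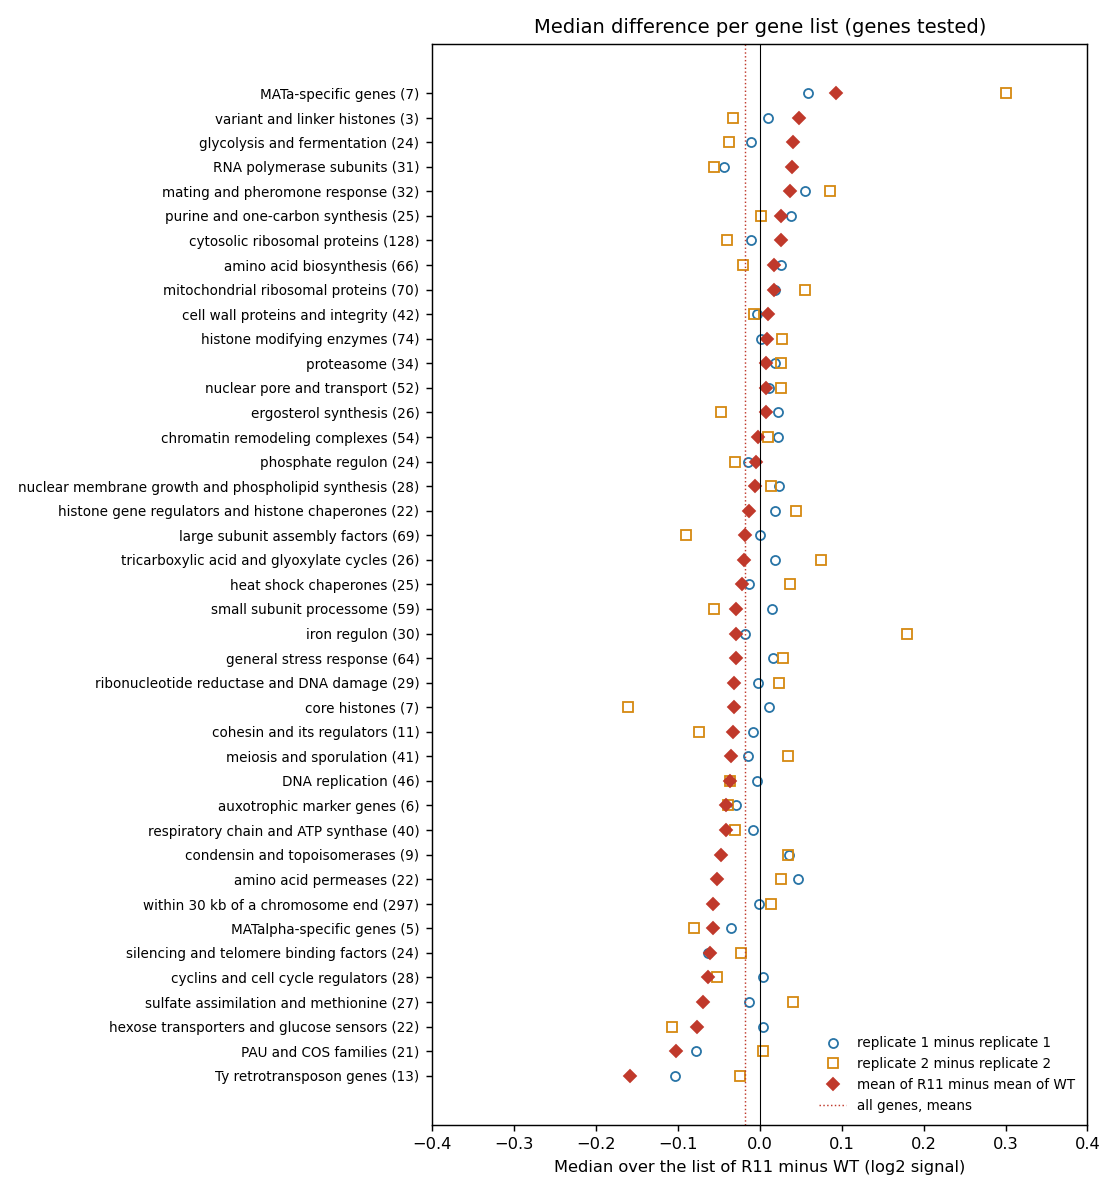
Median over each gene list of the log2 difference of R11 and WT, from the group means (red diamonds), within replicate number 1 (blue circles) and within replicate number 2 (orange squares), with the number of genes tested in brackets and the median of all genes as a dotted line. The red diamonds of the 39 lists lie between -0.10 and 0.09, and for lists such as RNA polymerase subunits both open symbols lie on the other side of 0; the Ty list, drawn up after its values were seen, and the genes near chromosome ends are shown as well.

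Position and length were also considered. The median per chromosome lay between -0.04, on chromosome VI, and -0.01, on chromosome XII, so no chromosome stood away from the others in R11. Without WT replicate 3 the medians lay between -0.01, on chromosome IX, and 0.02, on chromosome VIII, with chromosome VI at 0.01. The third of genes with the lowest WT signal had a median of -0.07 and the third with the highest 0.01, and without WT replicate 3 they were 0.0147 and -0.00468. By gene length, the median was -0.00229 in the third with the shortest genes and -0.03 in the rest, both the middle and the longest.

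To set the arginine beside the lysine, R11 was compared with K11. No gene passed the test (0 of 5415, 0%; 12 at an unadjusted p under 0.05, 0.222%), and 4 genes (0.0739%) differed by 2-fold and 26 (0.48%) by 1.5-fold, 10 higher in R11 (0.185%) and 16 lower (0.295%). Only 4 of the 26 had a mean signal of at least 50. The 95% interval lay within 2-fold of no change for 5205 genes, and for the rest a larger difference between the arginine and the lysine was not excluded. As these intervals are per gene and not adjusted for the number of genes, some of the 5205 may miss a larger difference. YAR009C, YDR261C-D, HLJ1 and RPP1A had intervals of the difference from K11 that did not include 0, and IRC18, HIS3 and NIT1 had intervals that did, but none of these passed the adjusted test. These genes were named by their R11 minus WT values, and R11 minus K11 uses the same R11 arrays. An interval without 0 is thus favoured by that choice and is not independent of it.

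The effect of the arginine was also measured without serine 15, as R11ΔS15 minus ΔS15, which shares no array with R11 minus WT. No gene passed the test there (0%; 23 at an unadjusted p under 0.05, 0.425%), and 16 genes (0.295%) differed by 1.5-fold. The difference of the 2 effects passed the test for 0 genes (0%; 7 at an unadjusted p under 0.05, 0.129%), and its interval lay within 2-fold for 4754 genes. Genes of chromosome IX were raised on ΔS15 replicate 1 and R11ΔS15 replicate 2, so that the median log2 difference of R11ΔS15 and ΔS15 on this chromosome was -0.78 within number 1 and 0.78 within number 2, and these genes were left out of the next value. Across 5009 other genes the 2 effects had a correlation of 0.18, which was -0.13 and 0.06 within the replicate numbers. Chromosome IX genes, NIT1 among them, carry the raised arrays in their errors in R11 against WT and K11 as well. This is because the main fit shared the spread of all 11 arrays. YAR009C read 126 and 176 in ΔS15 against 94.4 and 161 in R11ΔS15, lower with the arginine in both numbers by -0.42 and -0.13, and YDR261C-D had -0.60 and -0.27.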

How the data were processed

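The authors deposited linear MAS5 intensities (signals) of Affymetrix Yeast Genome 2.0 arrays, for which poly(A) RNA was labelled and hybridized at a core facility that normalized the data by the manufacturer's method. The version of MAS5 is not given in the sources used here. Of 10928 probe sets, 213 were controls, 5498 read a single gene of S. cerevisiae and 1746 belonged to S. pombe. Names came from the array annotation, with R64 for chromosomes. Each gene was represented by its brightest probe set above the 95th percentile of the S. pombe probe sets (log2 signal 2.35). This left 5415 genes, 111 of them on probe sets shared between sequences. HHF2 and TRP1 were not tested. Log2 signals of all 11 arrays were fitted with limma 3.58.1 (R 4.3.3), 1 coefficient per strain, variances with a trend on the mean, no replicate block, Benjamini-Hochberg adjustment at 0.05, and 95% intervals. The fit was tested on simulated arrays with independent noise and no effect of the replicate number, so that test does not cover this feature of the data. The number of arrays limits the precision (median standard error 0.16). Named genes are those past the test, those at 2-fold, up to 8 in each direction with the largest smaller within-number difference, up to 6 with the largest difference without overlap (mean signal at least 50), histones, genes of the paper and the ends of lists. The members and lists were chosen with earlier results of these data known, and lists got no test. Alternatives were an offset of 50, quantile normalization, centring, other filters and probe set rules, fewer strains, a replicate block, a spike-in term, no trend, array weights and leaving out arrays. Drawn with matplotlib 3.10.9 in Python 3.11.15.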

Additional observations from a re-analysis of the deposited data

How the results depend on the processing

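The count of 0 genes past limma was the same under the alternatives run, among them quantile normalization, a replicate block and a term for the spike-in split, except without R11 replicate 2, where 1 gene, the dim YJR154W, passed (log2 difference -5.85, adjusted p = 0.0407), a range of 0 to 1 over arrays left out. The 5 genes at 2-fold became 0 with an offset of 50, 3 with quantile normalization, 21 with no filter, 0 at a signal of at least 50, 3 with array weights, and 5 to 13 with an array left out. The 29 at 1.5-fold became 1, 19, 51 and 7 under the first 4 of these, and 29 to 90 with an array left out. Genes at 1.5-fold in both numbers went from 2 to 1 with an offset of 50 and to 1 without shared probe sets, and the correlation of the within-number differences went from 0.11 to 0.0526 over all tested genes, an alternative added after seeing the data. Of the 29, 22 had a mean signal under 50. Of 29 named genes, the direction turned for YOR316C-A without WT replicate 1 (-0.49 to 2.26 over arrays left out), YML100W-A without R11 replicate 2 (-3.46 to 0.61), ART10 without WT replicate 1 or 2 (-0.0813 to 0.39), HSP78 without R11 replicate 2 (-0.0573 to 0.46) and ENA5 without shared probe sets (0.00416), and the cause was not tested. The median of all genes was 0.00 after quantile normalization and after centring. The list of genes near centromeres was not run, since the tables used give no centromeres.

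Replicate numbers 1 and 2 are shared by WT and R11, but only a number is shared as far as the labels say. Deviations from the strain means correlated at 0.60 between WT and R11 replicates 1 and at 0.49 between replicates 2. With the replicate number as a block, 0 genes passed and 49 had an unadjusted p under 0.05 over all arrays. With a replicate block and only WT, R11 and K11, 0 passed, 440 (8.13%) had an unadjusted p under 0.05, the smallest adjusted p was 0.182, for YAR009C and ENA5, and the interval lay within 1.5-fold for 5120 genes. HIS3 had an adjusted p of 0.243 there.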
